A study of Mus musculus with 4 samples.

Results

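A set of 10 genes that code for surface proteins used to find or sort satellite cells was followed through cultured mouse muscle stem cells. They are Sdc4, Sdc3, Vcam1, Itga7, Itgb1, Cxcr4, Ly6a, Cd34, Calcr and Cd82, 10 of the 32285 genes counted, and all were chosen by name. The cells came from skeletal muscle of mice with the genotype MyoD-KI, grew in serum-containing growth medium for 5 days, and were sorted for high MyoD-tdTomato, a red fluorescent reporter of the muscle transcription factor MyoD. The 4 deposited samples are labelled replicates, are called libraries here, and form 1 group with this genotype, culture and sort. Strain, age and the number of animals are not given in the sources used here, and the low-reporter cells of the same cultures and freshly isolated cells were not analysed here. A level or share therefore says what was present after 5 days, not how far it had moved from the level before culture.

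Satellite cells are the resident stem cells of skeletal muscle and lie between the fibre and its basement membrane. In the resting state they express Pax7 and a set of surface proteins that hold them in this niche and allow them to be sorted. Once activated they express Myod1 and divide as myoblasts, and those that commit to differentiation switch on Myog, leave the cell cycle and fuse.

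The 4 libraries held the same cells, and whether they are separate libraries or repeated reads of 1 library was not tested. Each pair shared 5946 to 5965 cell barcodes, 99.9% of the smaller set, and 99.6% to 99.8% of 500 cells examined correlated best with their own barcode in another file. They were therefore counted as 1 sample (n = 1), no test between groups was possible, and each value is the mean of 4 files. Intervals in parentheses are exact 95% counting intervals at the mean count of 1 file, and leave out all variation between animals, cultures and sorts. Of 5985 barcodes, 5944 were in all 4 files and 5481 were kept, with a median of 11048.8 unique molecular identifiers (UMIs, 1 per captured molecule) and 3226.5 genes. The muscle lineage genes were present: Myod1 stood at 507 CPM (UMIs per 1000000 UMIs of all genes), Myog at 1803 CPM and Pax7 at 57.1 CPM. Without the low-reporter cells the level named in the sort label could not be checked. Of 26 markers of 6 other cell types, 21 were under 1 CPM. The highest were Scx at 92.2, Rgs5 at 5.25, Pdgfrb at 4.59 and Mkx at 2.41 CPM. Rgs5 had a UMI in 1.89% of thinned cells, came back in another library in 47.4% of cases and reached 19 UMIs in a cell, and whether a small class of other cells was present was not tested. Cells were not clustered, and the UMIs that free RNA gives were not measured.

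After 5 days in culture 8 of the 10 markers were present at 10 CPM or more, and Cd34 and Calcr were close to 0. The share of all genes at 10 CPM or more is not given here, so this count has no background. Itgb1 was the most abundant, followed by Cd82, then Sdc3, Sdc4 and Itga7 within a narrow range, then Ly6a, Vcam1 and Cxcr4. Because each UMI tags the 3-prime end of 1 molecule, CPM was not divided by transcript length, and capture may still differ between genes. Shares of cells are given at equal depth: 5000 UMIs were drawn at random from each of 5197 cells, and 284 shallower cells were left out.

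**Figure D1:**
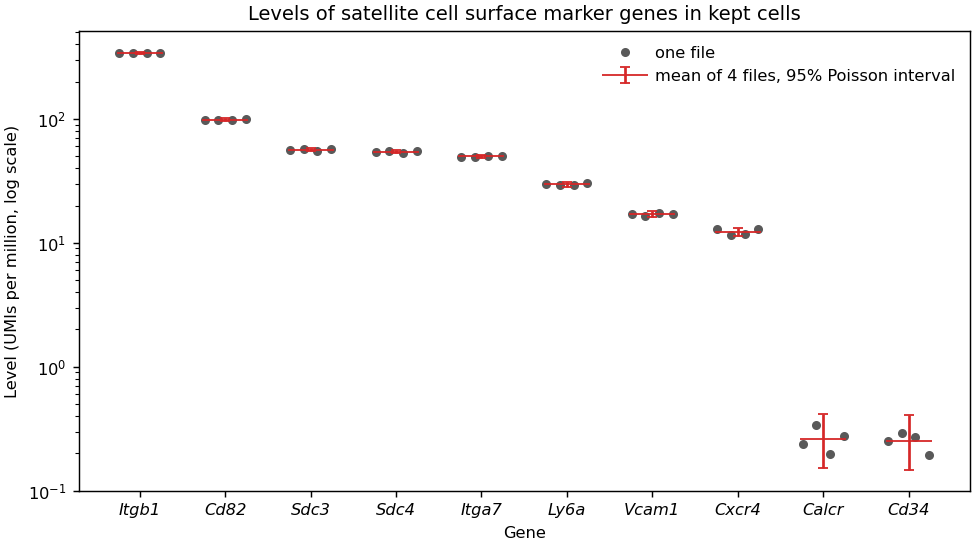
Levels of the 10 surface marker genes in the 4 libraries of the same kept cells, in CPM on a log axis, with 1 point per library and the exact 95% counting interval of the mean. The 8 other genes lie between 12.3 CPM (Cxcr4) and 341.2 CPM (Itgb1), and Calcr and Cd34 lie near 0.26 and 0.25 CPM.

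Itgb1, the integrin beta 1 chain that pairs with many alpha chains, stood at 342.0, 341.0, 339.2 and 342.6 CPM in libraries 1 to 4 (mean 341.2, 336.7 to 345.7). It was detected in 77.9% of thinned cells (76.7% to 79.0%) and in 92.1% without thinning. Itga7, the alpha chain that joins it in the laminin receptor of muscle, stood at 49.5, 49.0, 50.2 and 50.3 CPM (mean 49.7, 48.0 to 51.5) and in 20.9% of thinned cells (19.8% to 22.0%). Cd82, a tetraspanin that organises integrins and other membrane proteins, stood at 98.8, 98.6, 98.4 and 99.3 CPM (mean 98.8, 96.4 to 101.2) and in 36.9% of thinned cells (35.6% to 38.2%). The libraries of each gene lay within its counting interval, and the 3 genes kept the order Itgb1, Cd82, Itga7 in every library.

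The syndecans are membrane proteoglycans whose heparan sulphate chains bind growth factors and matrix. Sdc3 stood at 56.2, 57.0, 55.2 and 57.5 CPM (mean 56.4, 54.6 to 58.3), with a UMI in 23.5% of thinned cells (22.4% to 24.7%). Sdc4 stood at 54.1, 55.1, 53.5 and 54.7 CPM (mean 54.4, 52.6 to 56.2), with a UMI in 20.0% (18.9% to 21.1%). The counting intervals of the 2 levels overlapped, so their order in CPM was not resolved, whereas the shares of cells did not overlap. A single cell held up to 33 Sdc4 UMIs.

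Vcam1, a cell adhesion molecule that binds integrin alpha 4 beta 1, stood at 17.2, 16.5, 17.4 and 17.1 CPM (mean 17.0, 16.1 to 18.1) and in 7.15% of thinned cells (6.46% to 7.88%). Cxcr4, the receptor of the chemokine Cxcl12, stood at 12.9, 11.6, 11.7 and 12.8 CPM (mean 12.3, 11.4 to 13.1) and in 6.06% (5.42% to 6.74%). Ly6a, the anchored surface protein known as Sca-1, stood at 29.6, 29.3, 29.3 and 30.1 CPM (mean 29.6, 28.3 to 30.9) and in 10.5% (9.66% to 11.3%). Sca-1 is widely used to set non-myogenic cells of fresh muscle apart from satellite cells. Here the cells with a Ly6a UMI carried 448 CPM of Myod1 against 517 CPM in the cells without one. Other muscle genes differed more: Myog stood at 568 against 2052 CPM and Acta1 at 490 against 2251 CPM. Pax7 (85.3 against 54.0 CPM) and Myf5 (78.9 against 50.3 CPM) were higher with Ly6a. No pair of the levels of Vcam1, Cxcr4 and Ly6a had overlapping intervals.

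Calcr, the calcitonin receptor, and Cd34, a sialomucin of the cell surface, are both known for quiescent satellite cells. Calcr gave 16, 23, 13 and 17 UMIs in the 4 libraries, a mean of 0.261 CPM (0.153 to 0.417). Cd34 gave 17, 20, 18 and 12 UMIs, a mean of 0.253 CPM (0.147 to 0.408). Their intervals overlapped, and after thinning 0.140% of cells had a Calcr UMI (0.0572% to 0.284%) and 0.0818% a Cd34 UMI (0.0234% to 0.204%). In these cells 1 cell carried up to 6 Calcr UMIs, and 16 cells had a thinned Cd34 UMI in any of the 4 libraries with no cell in all 4. Both were under the minimum of 50 UMIs per library set for comparisons between cells. With so few UMIs, a difference of Cd34 or Calcr between cells was not detectable at this depth. In the bins described below Calcr ranged from 0.053% to 0.263% of cells and Cd34 from 0.00% to 0.325%. No Cd34 UMI was found with 15 or more Myog UMIs, where the interval reaches 0.240%.

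Because the same cells were counted in 4 libraries, the detection of a marker could be followed from 1 library to the next. A cell with an Itgb1 UMI in 1 library had one in another library in 80.7% of cases, and Cd82 came back in 50.2%. Sdc4 and Ly6a came back in 41.9% and 41.7%, more often than Sdc3 at 35.4% and Itga7 at 30.3%, although Sdc3 and Itga7 were found in more cells. Vcam1 came back in 20.3%, Cxcr4 in 11.6% and Pax7 in 47.7%. Molecules shared between libraries would raise these values, and such sharing was not measured. Outside Itgb1, a detection in 1 library was thus absent from the next in about as many cells as not, or in more.

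The concentration of the UMIs of each marker in a part of the cells was measured across libraries. The 520 cells (10%) with the most Ly6a in the other 3 libraries held 58.0% of the Ly6a UMIs of a library. The same share was 35.8% for Sdc4, 30.1% for Vcam1, 21.8% for Cd82, 21.2% for Sdc3, 20.7% for Cxcr4, 20.0% for Itga7 and 16.5% for Itgb1, with 37.6% for Pax7. Ly6a was therefore the most concentrated of the 8 markers by this measure, and Itgb1 the least. Molecules shared between libraries would raise these shares as well, so how uneven the expression itself was is not resolved.

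Cells were next divided by their thinned Myog UMIs into 4 bins, 0, 1 to 4, 5 to 14, and 15 or more, with a mean of 1688.75, 1030.75, 945 and 1532.5 cells. The markers went in different directions along these bins. Sdc4, Sdc3, Vcam1, Ly6a and, by a small amount, Cxcr4 were found in fewer cells of the highest Myog bin than of the lowest, and Itgb1, Cd82 and, by a small amount, Itga7 in more. In this comparison 49.5% of the 11348 genes compared had a lower share with an interval that lay beyond 0, and 19.2% a higher one, against 5 and 3 of the 8 members that could be compared. The count of lower members is near the background. The fold is a stricter reading: 4 of 8 members (Sdc4, Sdc3, Vcam1 and Ly6a) were at least 1 log2 unit lower, against 22.1% of genes, and 0 of 8 were that much higher, against 7.87%. With median-ratio scaling the same 4 were lower, against 1574 of 10476 genes, and Cd82 passed as higher, against 1156. With TMM scaling the calls on the members were those of median-ratio scaling, against 1626 genes lower and 1125 higher.

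Vcam1 was detected in 12.9%, 12.3%, 12.8% and 12.4% of cells with 0 Myog UMIs in libraries 1 to 4, and in 1.30%, 1.04%, 1.76% and 1.12% of cells with 15 or more. Its mean level was 28.07 CPM in the lowest bin and 2.71 CPM in the highest, a log2 ratio of -2.98 on the CPM plus 1 scale. Ly6a was detected in 18.2%, 18.0%, 18.5% and 18.0% of the lowest bin and in 2.80%, 2.20%, 2.28% and 2.57% of the highest. The level of Ly6a was 55.82 against 5.88 CPM, a log2 ratio of -3.06 (-3.45 to -2.66). For both genes no library of one bin overlapped a library of the other, but the libraries share their cells and are not replicates.

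The syndecans were lower with Myog by less. Sdc3 was detected in 34.4%, 31.0%, 31.5% and 32.8% of cells of the lowest Myog bin and in 11.6%, 11.7%, 11.1% and 11.7% of the highest, a mean difference of -20.91 percentage points (-23.69 to -18.11). Sdc4 was detected in 26.2%, 28.9%, 25.4% and 26.5% of the lowest and in 11.2%, 12.5%, 11.9% and 11.9% of the highest, a difference of -14.86 points (-17.55 to -12.14). As levels, Sdc3 stood at 81.49 CPM in the lowest bin and 25.78 CPM in the highest, and Sdc4 at 75.03 and 28.97 CPM. In the highest Myog bin the syndecans thus had a UMI in 11.5% (9.96% to 13.2%) and 11.9% (10.3% to 13.6%) of cells, above the shares of Vcam1 and Ly6a. How many of these UMIs came from free RNA was not tested.

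The RefSeq windows upstream of the 2 syndecan genes are shown because these genes of 1 family were of like level and both lower with Myog. Each holds the 250 bases before the annotated start on GRCm38.p6, read 5′ to 3′ on the strand of the gene, with a match to a searched motif in capitals. The Sdc4 window is chr2:164443189-164443438 on the minus strand, inside the longer GENCODE gene model but outside its exons, and the Sdc3 window is chr4:130792287-130792536 on the plus strand.
Sdc4: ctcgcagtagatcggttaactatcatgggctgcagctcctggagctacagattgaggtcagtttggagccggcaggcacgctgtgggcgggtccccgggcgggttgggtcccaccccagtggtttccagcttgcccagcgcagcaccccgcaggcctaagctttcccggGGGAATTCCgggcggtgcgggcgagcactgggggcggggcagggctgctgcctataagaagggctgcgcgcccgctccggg
Sdc3: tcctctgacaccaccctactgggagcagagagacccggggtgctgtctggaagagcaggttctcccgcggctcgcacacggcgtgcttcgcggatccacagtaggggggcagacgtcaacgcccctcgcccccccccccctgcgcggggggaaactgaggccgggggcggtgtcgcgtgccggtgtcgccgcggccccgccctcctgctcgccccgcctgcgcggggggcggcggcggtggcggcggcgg
A set of 3 motifs was searched on both strands. The E-box CAGCTG reads the same on both strands and was found in 13.0% of 32851 such windows. The E-box form CAGGTG, searched also as its reverse complement, was found in 17.2% of windows. The kappa B form GGGANTTCC, searched also as its reverse complement, was found in 1.43%. No match overlapped another in the windows shown. The Sdc4 window, with 68.0% G and C, held 1 match to GGGANTTCC that begins 81 bases before the start, and the Sdc3 window, with 76.4% G and C, held no match. A match is a description of the letters and not a site. Windows for 7 of the 10 genes were found in the table, and Vcam1, Itga7 and Ly6a had none.

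Cxcr4 was detected in 6.39%, 7.25%, 6.83% and 4.41% of the 4 Myog bins in rising order. The lowest and highest bins differed by -1.98 points (-3.59 to -0.38), at 13.81 against 9.24 CPM, a log2 ratio of -0.53. Over all genes compared the median log2 ratio was -0.32, so relative to it Cxcr4 lay at -0.21. The counting interval of the highest bin (3.43% to 5.56%) still overlapped that of the next bin (5.30% to 8.62%), so the order of neighbouring bins was not resolved.

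Cd82 went the other way. It was detected in 26.2%, 25.3%, 26.1% and 25.1% of cells with 0 Myog UMIs in the 4 libraries and in 41.9%, 42.3%, 42.6% and 44.1% of those with 15 or more, a difference of 17.06 points (13.76 to 20.32). The middle bins had 37.7% and 46.6%, so the share was highest with 5 to 14 Myog UMIs. As a level, Cd82 stood at 64.55 CPM in the lowest bin and 126.96 CPM in the highest, a log2 ratio of 0.97, just under the 1 log2 unit used above.

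Itgb1 was found in 74.2%, 74.5%, 81.3% and 82.1% of the Myog bins in rising order, a difference of 7.85 points between the ends (4.96 to 10.71). Its level was 300.28 CPM in the lowest bin and 383.66 CPM in the highest. Itga7 was found in 18.6%, 20.0%, 24.6% and 21.7%, a difference of 3.12 points between the ends (0.30 to 5.94) with its highest value in the third bin. Thinned to 3000 UMIs, the Itga7 difference was -0.23 points (-2.89 to 2.66), so its direction was not resolved at the ends of the Myog range.

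**Figure D2:**
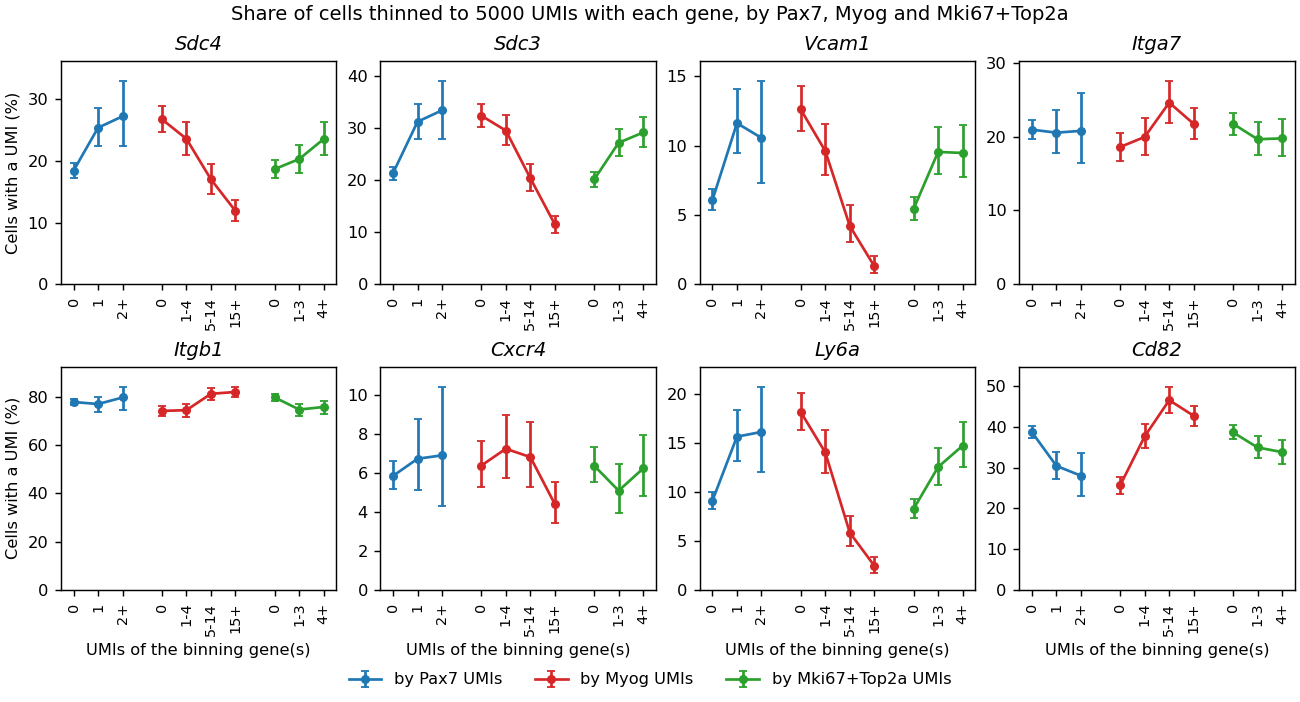
Share of thinned cells (percent) with a UMI of each of the 8 markers that could be compared, by Myog, Pax7 and Mki67+Top2a bin, as the mean of 4 libraries with exact 95% counting intervals. Along the Myog bins Vcam1 goes from 12.6% to 1.30% and Ly6a from 18.2% to 2.46%, while Cd82 goes from 25.7% to 42.7%.

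Because few cells with 15 or more Myog UMIs were dividing (a mean of 64 with 4 or more UMIs of Mki67 and Top2a, against 495.25 of those with 0 Myog), the Myog bins were compared again among the cells with 0 UMIs of Mki67 and Top2a, genes of the dividing cell. Sdc4, Sdc3, Vcam1, Ly6a and Cxcr4 were again lower with 15 or more Myog UMIs than with 0, with 42.0% of all genes lower, and Itgb1 and Cd82 again higher, with 16.3% of all genes higher. The Itga7 difference was 3.63 points (-0.26 to 7.40), whose interval includes 0. With 1 to 3 UMIs of Mki67 and Top2a, Sdc4, Sdc3, Vcam1 and Ly6a were lower with Myog (17.6% of all genes) and Cd82 higher (10.5%), while the intervals of Cxcr4, Itgb1 and Itga7 included 0. With 4 or more UMIs, where the highest Myog bin held a mean of 64 cells, Sdc4, Sdc3 and Ly6a were lower (5.25% of all genes) and Cd82 higher (5.83%). There the Vcam1 difference was -7.92 points (-12.24 to 0.43), and the intervals of Cxcr4, Itgb1 and Itga7 included 0 too.

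Pax7 marks the stem and progenitor state, and a Pax7 UMI was present in 20.6% of thinned cells. Cells with a Pax7 UMI had Vcam1, Ly6a, Sdc3 and Sdc4 more often than cells without one and had Cd82 less often. Sdc3 was higher by 10.45 points (7.37 to 13.58), Sdc4 by 7.54 points (4.65 to 10.5), Ly6a by 6.64 points (4.33 to 9.13) and Vcam1 by 5.25 points (3.27 to 7.43). Cd82 was lower, at -8.95 points (-12.06 to -5.74). For Itga7 (-0.31, -3.01 to 2.53), Itgb1 (-0.11, -3.00 to 2.67) and Cxcr4 (0.95, -0.67 to 2.78) the interval of the difference in points included 0. Over all genes compared 37.9% were higher and 12.8% lower by this measure, so 4 and 1 of 8 members are close to the background. As fold changes, 0 of 8 members passed 1 log2 unit in either direction, against 3.67% of genes higher and 4.05% lower. With median-ratio and TMM scaling 0 of 8 members passed again, against 1.38% and 1.11% of genes higher and 5.22% and 5.54% lower. The largest was Vcam1 at 0.87, with a median over the members of 0.40 and over all genes of 0.19. Of the 4 pericyte or smooth muscle markers, Rgs5 and Pdgfrb differed more with Pax7, with log2 ratios of 1.53 and 1.70. Kcnj8 and Myh11 had too few UMIs to be compared. Per library, the 4 genes summed to 24.7 to 28.1 CPM in cells with Pax7 and 7.26 to 8.22 CPM in cells without. Their part in the Pax7 differences of the members was not tested.

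Read from the side of the marker, Pax7 was detected in 32.7% of cells with a Vcam1 UMI and in 19.7% of cells without one. The pair of shares was 31.0% and 19.4% for Ly6a, 27.9% and 18.4% for Sdc3, and 26.8% and 19.1% for Sdc4. For Cd82 it was 16.6% and 22.9%. Itgb1 (20.6% with, 20.7% without) and Itga7 (20.4% and 20.7%), both used in sort gates, gave nearly the same pair, and Cxcr4 gave 23.2% and 20.4%. The intervals for cells with Vcam1 (27.9% to 37.7%) and with Ly6a (27.1% to 35.1%) overlapped, so their order was not resolved. Most cells with either UMI had no Pax7 UMI.

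By the number of Pax7 UMIs (0, 1, and 2 or more, with a mean of 4126.25, 774.5 and 296.25 cells), Sdc3 was detected in 21.4%, 31.3% and 33.5% of cells and Sdc4 in 18.4%, 25.4% and 27.2%. Ly6a was detected in 9.11%, 15.6% and 16.1%, and Vcam1 in 6.07%, 11.6% and 10.6%. Cd82 went from 38.7% to 30.4% and 28.0%. The step lay between 0 and 1 UMI for each of these 5 genes, and the bins of 1 and of 2 or more were close.

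The Pax7 UMIs themselves lay mostly in cells without Myog. Pax7 was detected in 39.0% of cells with 0 Myog UMIs, 28.3% with 1 to 4, 9.20% with 5 to 14 and 2.12% with 15 or more. Among the cells with 0 Myog UMIs, 659 with and 1029.75 without a Pax7 UMI on average, the Pax7 difference was 0.42 points for Sdc4 (-3.95 to 4.88), 2.57 for Sdc3 (-2.10 to 7.26), 0.68 for Vcam1 (-2.61 to 4.10), -0.86 for Ly6a (-4.65 to 3.04) and -0.55 for Cd82 (-4.85 to 3.85). All 5 intervals include 0. The exception was Itgb1, detected in 77.80% of cells with and 71.95% of cells without Pax7, a difference of 5.85 points (1.52 to 10.07) that ranged from 2.46 to 8.75 over the libraries. Its interval included 0 with thinning to 3000 UMIs (-0.37 to 9.48) and without the 10% of cells with the lowest Malat1 share (-1.25 to 7.503). In this stratum 7.52% of all genes were higher and 1.42% lower, so 1 of 8 members higher is near the background. In the 3 other Myog bins 0 of 8 members differed with Pax7, against 3.38%, 1.84% and 0.291% of genes higher and 0.740%, 0.264% and 0.0264% lower.

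Since a Pax7 UMI came back in fewer than 1 of 2 cases from library to library, Pax7 was also called over all 4 libraries, a setting chosen after the data were seen. Of the cells with 0 Myog UMIs in every library, 412 had Pax7 in 2 or more libraries and 175 in none. The differences in points were 2.04 for Sdc4 (-6.39 to 9.98), 4.97 for Sdc3 (-3.62 to 13.1) and -4.57 for Vcam1 (-11.5 to 1.65), all with intervals that include 0. Itgb1 was at 76.6% and 68.0%, a difference of 8.64 points (0.51 to 17.1). This value comes from part of the same cells and libraries as the difference above. The share of all genes that differed in this setting was not measured. The intervals are wide, and whether the Pax7 difference itself differs between Myog bins was not tested.

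**Figure D3:**
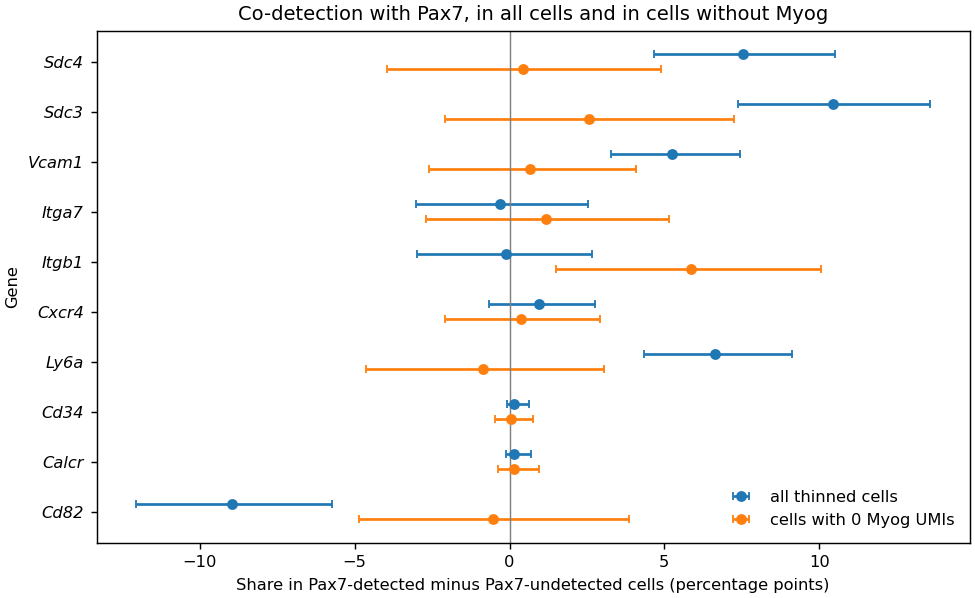
Difference in the share of thinned cells (percentage points) between cells with and without a Pax7 UMI, for the 10 markers, in all cells and among cells with 0 Myog UMIs, as the mean of 4 libraries with exact 95% counting intervals. In all cells Sdc3, Sdc4, Ly6a and Vcam1 lie above 0 and Cd82 below 0, and with 0 Myog UMIs only the Itgb1 interval lies beyond 0.

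The division bins summed the UMIs of Mki67 and Top2a, with a mean of 2999.25 cells at 0, 1222.5 at 1 to 3 and 975.25 at 4 or more. Cells with 4 or more had Sdc3 more often than those with 0, by 9.04 points (29.20% against 20.16%). Ly6a was higher by 6.46 points, Sdc4 by 4.88 and Vcam1 by 4.04, while Cd82 differed by -4.85 and Itgb1 by -3.97. Without thinning the last 2 turned, to 0.490 and 4.14 points, so their direction holds at equal depth only. Of all genes 37.2% were higher and 15.9% lower, so 4 and 2 of 8 members are close to the background. By fold 0 of 8 members passed 1 log2 unit, against 8.85% of genes higher and 4.99% lower. Cxcr4 (6.39%, 5.10% and 6.25% over the bins) and Itga7 (21.7%, 19.7% and 19.8%) did not differ between the ends beyond counting error.

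Within the cells with 0 Myog UMIs, 0 of 8 members differed between the division bins, against 15.7% of genes higher and 6.42% lower. With 5 or more Myog UMIs Cd82 was the 1 of 8 members that differed, a count near the background. With 5 to 14 Myog UMIs it was detected in 55.42% of cells with 4 or more Mki67 and Top2a UMIs and in 43.04% of cells with 0, a difference of 12.38 points (2.56 to 21.60), against 11.3% of genes higher and 3.38% lower. With 15 or more Myog UMIs Cd82 was found in 57.73% and 40.84%, 16.89 points apart (3.69 to 29.51), which rests on a mean of 64 dividing cells, against 9.57% of genes higher and 2.11% lower. With 1 to 4 Myog UMIs 0 of 8 members differed, against 11.3% of genes higher and 3.90% lower. The Cd82 level was lowest with 0 Myog UMIs and 4 or more Mki67 and Top2a UMIs, at 59.4 CPM. It was highest with 15 or more Myog UMIs in the same division bin, at 180 CPM.

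Pax7 was also compared within the division bins. Among cells with 0 Mki67 and Top2a UMIs the Pax7 difference was 14.62 points for Sdc3, 10.05 for Sdc4, 9.83 for Ly6a and 6.70 for Vcam1, with Cd82 at -6.92, against 29.5% of genes higher and 11.3% lower. Among cells with 1 to 3 and with 4 or more, only Cd82 differed with Pax7, at -8.91 and -9.67 points. With 0 Myog UMIs as well, 0 of 8 members differed with Pax7 in either end of the division range, against 4.16% and 0.308% of genes higher and 1.08% and 0.0352% lower. In the division bins alone 3.005% and 1.80% of genes were lower with Pax7 and 6.12% and 3.13% higher, from 1 to 3 UMIs and from 4 upward.

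**Figure D4:**
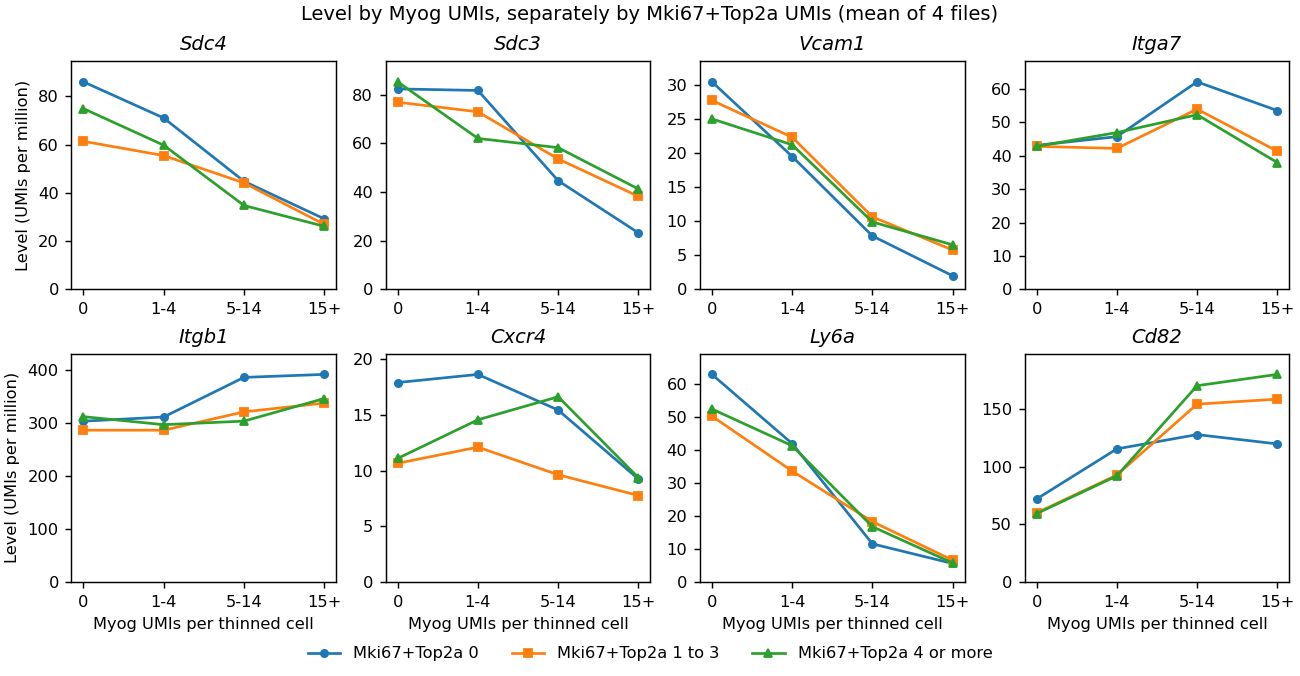
Level of 8 markers (CPM, linear axes from 0 that differ between panels) in the 12 combinations of Myog bin and Mki67+Top2a bin, as the mean of 4 libraries. Cd82 is lowest at 59.4 CPM with 0 Myog and 4 or more Mki67+Top2a UMIs and highest at 180 CPM with 15 or more and 4 or more, and the smallest combination holds a mean of 64 cells.

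Markers were next paired with each other. Of 28 pairs with at least 20 cells expected to hold both if detections fell independently, 5 were found together more often than that and 1 less often, with the interval of the observed-to-expected ratio beyond 1. Pairs of all genes were not counted in this way, so these counts have no background to be read against. The 5 pairs found more often joined the genes that were lower with Myog. Vcam1 and Ly6a gave a ratio of 1.62 (1.25 to 2.07), Sdc4 and Ly6a 1.39, Sdc4 and Vcam1 1.29, Sdc3 and Ly6a 1.26, and the 2 syndecans 1.14. Vcam1 and Cd82 gave 0.830. Among cells with 0 Myog UMIs the interval of each of the 26 pairs with enough cells included 1, with ratios from 0.894 to 1.12, and with 15 or more so did that of each of 13 pairs. Vcam1 and Ly6a gave 1.09 with 0 Myog UMIs.

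A thinned cell had a UMI of 2.03 of the 10 markers on average and of 7 at most, and 5.26% of cells had none. The mean was 2.15, 2.17, 2.07 and 1.78 over the Myog bins in rising order, and 1.99, 2.19 and 2.23 over the Pax7 bins. Gene pairs whose proteins are used together for sorting were found together in few cells at this depth. Itgb1 and Cxcr4 were both detected in 4.63% of cells (5.17% with and 4.49% without Pax7), and Itga7 and Vcam1 in 1.51% (2.61% and 1.22%). Both syndecans were detected in 5.35% (8.12% and 4.63%), and Itga7 with Cd34 in 0.00962%. A UMI says nothing of the protein at the surface, so these shares are not those of a sort gate.

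Partners and relatives of the markers were followed in a list of 36 genes for integrin chains, syndecan relatives, tetraspanins, ligands and other satellite cell surface proteins. Of the 31 with enough UMIs, 14 were at least 1 log2 unit lower and 3 higher with 15 or more Myog UMIs than with 0, against 22.1% and 7.87% of all genes. The list had a median log2 ratio of -0.81 against -0.32 over all genes. By Pax7, 4 of 32 were higher (Sdc2, Col5a1, Col5a3 and Egfr) and 1 lower (Ramp3), against 3.67% and 4.05% of all genes. By division 3 were higher (Sdc1, Cxcl12 and Col5a3) and 1 lower (Ramp3), against 8.85% and 4.99% of all genes, so these are near the background. The 4 most abundant were Cd63 at 1680 CPM, Ncam1 at 1394, Cd81 at 490 and Lama2 at 247.

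The other syndecans of the list were lower with Myog too. Sdc2 stood at 101 CPM with 0 Myog UMIs and 13.9 CPM with 15 or more, a log2 ratio of -2.78, and Sdc1 had -2.17, beside -1.62 for Sdc3 and -1.34 for Sdc4. Among integrin chains Itga6, another laminin-binding alpha chain, was higher with Myog (59.6 against 25.1 CPM, log2 ratio 1.22). The chains Itga3 (2.77 against 11.7 CPM, -1.75) and Itgav (12.9 against 52.7 CPM, -1.95), which also pair with Itgb1, were lower, and the median of the 5 chains with enough UMIs was -0.81. Itga4, which binds Vcam1, had a log2 ratio of 0.06. The tetraspanins differed from Cd82, with Cd9 at -1.32, Cd63 at -0.45 and Cd81 at -0.00. Of the 4 on the list, 2 (Cd9 and Cd151) were at least 1 log2 unit lower.

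Ligands were measured in the same cells. Cxcl12, the ligand of Cxcr4, stood at 33.9 CPM with 0 Myog UMIs and 0.94 CPM with 15 or more, a log2 ratio of -4.19, while the other Cxcl12 receptor Ackr3 had -0.60. Lama2, a laminin chain bound by the Itga7 integrin, had -1.20, and Col5a1 and Col5a3, chains of collagen V, had -1.88 and -3.40. Collagen V is a known ligand of the calcitonin receptor in satellite cells. Ramp3, a partner of that receptor, had 2.49 and Ramp1 0.05. These ratios are differences on the CPM plus 1 scale.

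Ly6a is also induced by interferon and lies in a cluster of similar genes, so 12 such genes were set beside it. Ly6e stood at 85.8 CPM in cells with a Ly6a UMI and 38.2 CPM in cells without, and Ly6c1 at 15.6 against 3.15 CPM. Reads of these similar genes could have been split by the counting, so the 2 values are uncertain. Bst2 stood at 19.9 against 16.3 CPM, B2m at 95.4 against 79.5 and Ifi27 at 44.3 against 36.8. Isg15 stood at 1.39 against 0.33 CPM and Ifit1 at 0.09 against 0.17.

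Of the markers of other cell types, the fibroblast, endothelial and blood cell genes were low on both sides. The sum of the pericyte or smooth muscle genes was higher with Ly6a. The 5 fibroblast genes summed to 1.12 to 2.20 CPM over the libraries in cells with Ly6a and 0.858 to 1.03 CPM in cells without, with Lum and Dpt at 0 in the former. A count of 0 there has an interval of up to 1.35 CPM for each gene. The 5 endothelial genes summed to 0.734 to 3.74 against 1.63 to 2.42 CPM, with Cdh5 and Kdr at 0. The 5 blood cell genes summed to 0.367 to 1.495 against 0.774 to 1.42 CPM, with Ptprc and Cd52 at 0. The 4 pericyte or smooth muscle genes summed to 18.5 to 21.2 CPM with Ly6a and 10.1 to 10.6 without. Most of this was Rgs5 (11.2 against 5.34 CPM) and Pdgfrb (8.73 against 4.56 CPM). Myh11 (0.28 against 0.42 CPM) and Kcnj8 (0.09 against 0.02 CPM) were close to 0. The sum was also 16.3 to 21.2 CPM with Vcam1 against 10.3 to 11.3 without. With 0 Myog UMIs it was 20.98 to 23.8 CPM, against 1.06 to 2.60 with 15 or more. The part of these 4 genes in the Ly6a and Vcam1 values was not tested.

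Genes with a like pattern were taken over the 12 combinations of Myog and division bin, among 8583 genes with enough UMIs. The 12 points are cells of 1 sample that share libraries and depth, so the correlation is a description. For Ly6a the closest were Tm4sf1 (Pearson r 0.994), Dab2 (0.993) and Ptgs1 (0.993), for Vcam1 Rrbp1 (0.994), Arpc1b (0.993) and Ebf1 (0.992). Sdc4 was closest to Gm35019 (0.989), Cdc14b (0.982) and Wdr6 (0.980), and Sdc3 to Slc25a30 (0.980), Anxa2 (0.980) and Ift74 (0.979). Cd82 was closest to Traf4 (0.987), Lzts1 (0.981) and Sox8 (0.980), and Itgb1 to Prkaa2 (0.978), Arl4a (0.972) and Mcu (0.966). Cxcr4 (Nr3c2, 0.948) and Itga7 (Tmem87a, 0.932) had the weakest closest genes.

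The gene models place the 10 genes on 8 chromosomes of GRCm38 (GENCODE M21). Sdc4 (ENSMUSG00000017009) lies at chr2:164424247-164443887 on the minus strand, Cd82 (ENSMUSG00000027215) at chr2:93419111-93463140 minus and Sdc3 (ENSMUSG00000025743) at chr4:130792537-130826319 plus. Vcam1 (ENSMUSG00000027962) lies at chr3:116109949-116129688 minus, Itga7 (ENSMUSG00000025348) at chr10:128933818-128958282 plus and Itgb1 (ENSMUSG00000025809) at chr8:128685654-128733200 plus. Cxcr4 (ENSMUSG00000045382) lies at chr1:128588199-128592293 minus, Cd34 (ENSMUSG00000016494) at chr1:194938819-194961279 plus, Ly6a (ENSMUSG00000075602) at chr15:74994877-74998031 minus and Calcr (ENSMUSG00000023964) at chr6:3685680-3764714 minus. Other annotated genes overlap 6 of them: Sdc3 (Gm12970 and Gm26716), Vcam1 (Gm43109), Itga7 (Gm25494 and Mettl7b), Cd34 (Gm16897), Calcr (Mir653 and Mir489) and Cd82 (Mir7001 and Gm10804). Whether the counting used strand is not given in the sources used here.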

How the data were processed

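Single cells of 1 group were deposited as 4 samples labelled replicates, called libraries here. The authors deposited raw counts of UMIs for every gene and barcode, and the file headers name Cell Ranger 7.1.0. The submitters' processing notes name Cell Ranger 3.1.0 and the builds mm10 and GRCm39, with no role. Annotation, barcode calling and the use of intronic reads are not given in the sources used here; intronic reads, where counted, raise long genes. The totals of the 4 libraries ranged from 62627341 to 68898900 UMIs. Coordinates are those of GENCODE M21 on GRCm38, in which 32158 of 32285 identifiers (99.6%) were found, and the authors' build may be another.

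A cell was kept if its barcode was in all 4 files, its mean number of genes was 1000 or more and its mean share of mitochondrial UMIs was below 10%. Because the files shared their cells (summed counts per pair gave a chi-square per degree of freedom of 0.903 to 1.03), values of the files were averaged and no test was run. Levels are CPM over kept cells. Shares come from cells thinned to 5000 UMIs per file. Log2 ratios used a pseudocount of 1 CPM on thinned counts summed per bin. Intervals at 95% are Poisson for levels, Clopper-Pearson for shares, combined binomial for differences and conditional binomial for ratios. They cover counting error only. Genes needed 50 thinned counts in every file, which 8 of 10 members had. A count of 0 in a whole library allows up to 0.044 to 0.048 CPM (3 counts). A gene was called where the interval of the difference lay beyond 0, or at 1 log2 unit. No doublet caller was run; leaving out the 5% of cells with the most UMIs was an alternative. The scripts, in Python 3.11.15 with numpy 2.4.6, scipy 1.17.1 and pandas 2.3.3, were tested on simulated data.

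The genes and lists were chosen with earlier results of these data known. Named genes are the 10 members, the 3 genes most like each (at least 200 counts), and from the partner list the 4 most abundant and the ligands or partners of a described member. Relative to all genes, the median log2 ratio was 0.19 by Pax7, -0.32 by Myog and 0.15 by division, and near 0 after median-ratio or TMM scaling. Alternatives were thinning to 3000 or 8000 UMIs or none, a stricter cell filter, leaving out the cells with the lowest 10% of Malat1, bins from the next file, CPM averaged over cells, the 2 other scalings, and leaving out each library. Some genes of the lists are not reported here. The comparison within cells with 0 Myog UMIs, the Pax7 call over several libraries and the concentration of UMIs were added after the data were seen.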

Additional observations from a re-analysis of the deposited data

Results flagged for a closer look

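Each library's value was compared with those of the 3 others, and in 2 of 60 sets of values (3.33%, where chance gives about 5%) 1 library lay far from the rest. The Pax7 difference in the share of cells with Cxcr4 was -0.118 points in library 2, against 1.26 to 1.35 in the others. The Myog difference in the share of cells with Calcr was -0.0547 points in library 3, against -0.178 to -0.161. Both lie inside the counting interval of the mean, and the libraries share their cells.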

How the results depend on the processing

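The 4 libraries are 1 set of cells, so no value carries the spread between animals, cultures or sorts. No paired analysis was possible because there is 1 group only and no test was run. Of the values that answer a comparison, 97 stayed within their limits over the alternatives and 7 moved. The number of markers whose share differed with Pax7 among cells with 0 Myog UMIs, 1 as reported, was 0 with thinning to 3000 UMIs, 0 without the cells of lowest Malat1 share and 3 without thinning. Without thinning 9 markers were higher with Pax7 and 7 in the highest division bin, against 4 each as reported. The number of genes at least 1 log2 unit higher with Pax7 was 157 with median-ratio and 126 with TMM scaling, against 417. Itga7 by Myog went to -0.229 points (-2.89 to 2.66) with thinning to 3000 UMIs. By division, without thinning, Itgb1 went to 4.14 points and Cd82 to 0.490 points; depth differs between the bins there. Of the other values 701 stayed, 106 moved and 3 changed sign. Leaving out each library gave 8 markers at 10 CPM or more, 6 in at least 10% of cells, 5 lower with Myog, 4 higher with Pax7, 4 higher with division and 1 differing with Pax7 at 0 Myog UMIs in every case. The number in at least 10% of cells was 5 at 3000 UMIs, 7 at 8000 and 5 without the cells of lowest Malat1.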
